A study of Mus musculus with 8 samples.

Results

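The genes described here are 10 members of the hypoxia-inducible factor (HIF) system, picked by symbol from the 34899 gene rows of a deposited expression table: the alpha subunits Hif1a, Epas1 and Hif3a, the prolyl hydroxylases Egln1 and Egln3, and the hypoxia-induced genes Bnip3, Ndrg1, Ankrd37, Ddit4 and P4ha1. HIF is a transcription factor made of an oxygen-labile alpha subunit and the stable partner ARNT. When oxygen is plentiful, EGLN prolyl hydroxylases mark the alpha subunit, the VHL ubiquitin ligase recognises the mark and the subunit is degraded; when oxygen is short, the subunit lasts and switches on genes for glycolysis, mitophagy, collagen maturation and vessel growth. Control is thus largely on the protein, and RNA levels of the alpha subunits do not report it directly. Lung endothelium is known for abundant Epas1.

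RNA sequencing was done on endothelial cells sorted as CD45- CD31+ from lungs of female C57BL6 mice, 4 from HF mice and 4 from LF mice. The labels do not spell HF and LF out and give neither the age nor the length of any feeding; the series title names obesity, neutrophil oxidative stress, vascular inflammation and metastatic transmigration. No transgene, deletion or other agent is named for either group. The design text gives 4 mice per group, and the p-values below measure the spread between these libraries only.

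The libraries held 14990589 to 20781564 assigned reads in HF and 10631506 to 15516831 in LF. Values are normalised counts, reads divided by a size factor per library. The CD31 gene Pecam1 lay between 27351 and 29564 in HF and between 19425 and 33236 in LF libraries, and the CD45 gene Ptprc between 90.4 and 248 in HF and between 127 and 265 in LF. The libraries LF 1 and LF 2 stood apart from the rest: on the first principal component, which held 36.1% of the variance, they scored -56.4 and -50.9, against -6.79 to 39.6 for the other 6 libraries. In them, unconfirmed transcript models (biotype TEC) took 0.725% and 0.635% of reads, against 0.286% to 0.443% elsewhere, and the sum of 10 endothelial markers was 108419 and 112397, against 143241 to 170934 elsewhere. LF 3 and LF 4 stood apart on the second component (17.5% of the variance), at -38.5 and -34.2 against -1.41 to 29.6 elsewhere. Their sums of 10 red cell and platelet markers were 44584 and 36375, against 23137 to 26086 elsewhere. Neither LF pair is thus taken as the usual LF state. The fold of each tested gene named below is therefore also given for the HF libraries against LF 3 and LF 4 alone. For balance, it is also given against LF 1 and LF 2 alone. These splits come from the data and are not groups of the study. Their adjusted p-values thus describe the splits and are no tests of HF against LF.

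None of the 10 genes separated the 4 HF from the 4 LF libraries, where 5.43% of the 17067 genes tested did. Of the 8 members with enough reads to be tested, 0 passed an adjusted p of 0.05 (limma on log2 values, Benjamini-Hochberg over all genes tested), against a background of 0% of all genes, and 0 had an unadjusted p under 0.05, against a background of 11.0% (1882 genes). edgeR's quasi-likelihood test called 0 genes as well, with 11.2% at an unadjusted p under 0.05 (1905 genes), DESeq2 called 313 of 14420 (2.17%), and 311 of 15276 (2.04%) passed in the authors' deposited table, none of them a member. Group means were higher in HF for 7 of the 8, against 53.2% of all genes tested. The median log2 fold change of the 8 was 0.26, against 0.02 over all genes. Over genes with a mean of at least 50 normalised counts, the median was 0.075. The lean of the 8 toward HF depended on LF 1 and LF 2. Against LF 3 and LF 4 alone, 2 of the 8 were higher in HF with a median of -0.08, where 7756 of the 17067 genes were, with a median of -0.03. Against LF 1 and LF 2 alone, 6 of the 8 were, with a median of 0.47, where 8964 genes were, with a median of 0.03. The 10 endothelial markers leaned alike. With all 8 libraries, 9 of the 10 had a higher mean log2 value in HF, with a median of 0.19. Of the 10, 2 were higher against LF 3 and LF 4 alone and 9 against LF 1 and LF 2 alone. The lean is thus not particular to the members.

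**Figure D1:**
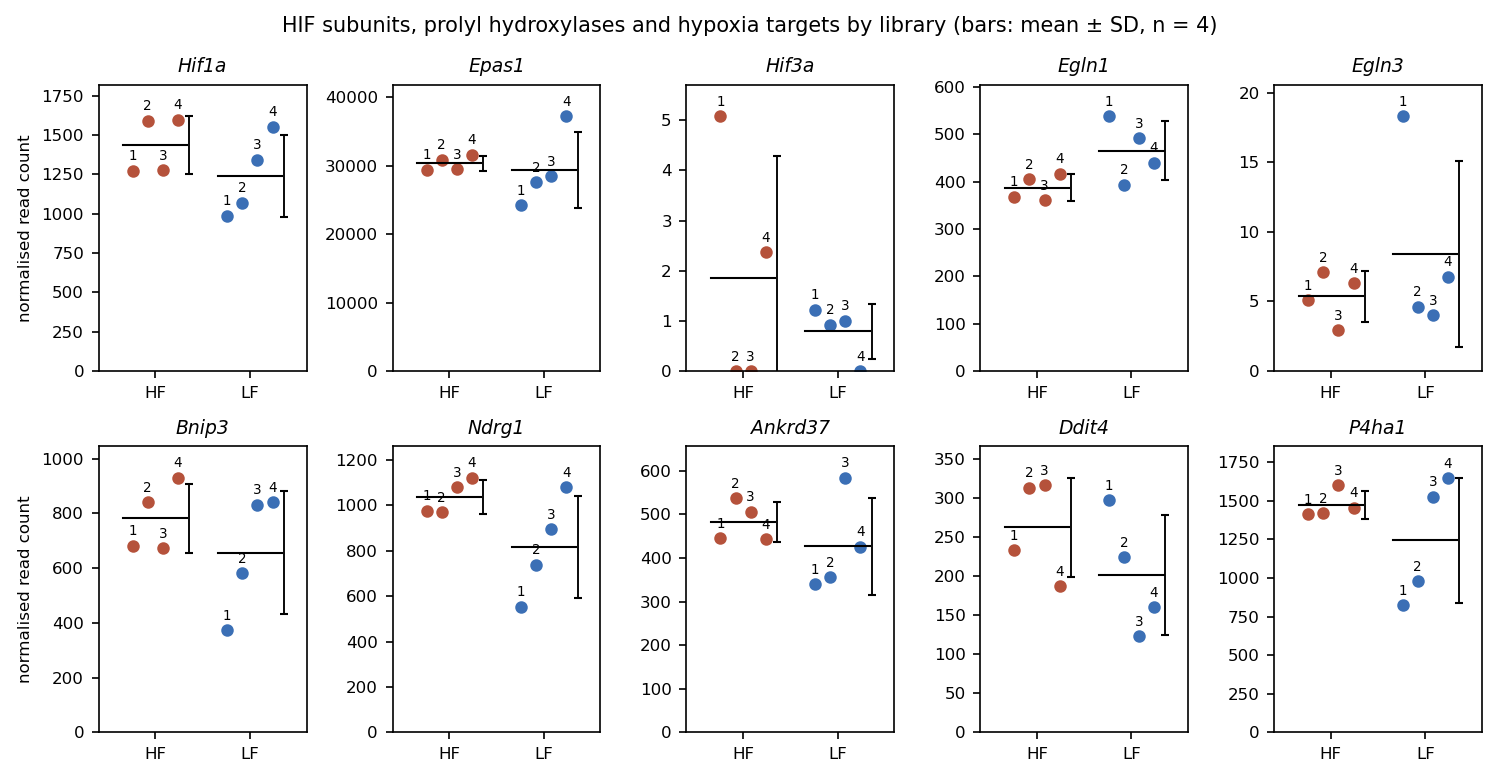
Normalised counts of each of the 10 genes (vertical axes start at 0), with a point per library (its number above it), HF left and LF right, a line at the mean and a bar for the SD of 4 libraries, cut at 0 for Hif3a. The HF and LF points overlap for every gene, and for Bnip3, Ndrg1 and P4ha1 the points at the bottom are LF 1 and LF 2.

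Hif1a encodes the broadly expressed alpha subunit that drives much of the acute response to low oxygen; its gene spans chr12:73901375-73947530 (+ strand; GRCm38, GENCODE M21). It had 1273, 1591, 1275 and 1598 normalised counts in HF 1 to HF 4, against 986, 1071, 1344 and 1553 in LF 1 to LF 4. The groups overlapped, with LF 1 and LF 2 lowest of all 8 libraries. The means were 1434 ± 185 in HF and 1238 ± 259 in LF (SD, n = 4 each), a fold of 1.17 with a 95% interval of 0.923 to 1.48 (limma adjusted p = 0.608). Against LF 3 and LF 4 alone the fold was 0.987 (0.809 to 1.20), and against LF 1 and LF 2 alone it was 1.39 (1.14 to 1.68; limma adjusted p = 0.0272). Exons of Hif1a overlap Gm49321 on the same strand and the antisense gene Gm15283, and Gm15283 averaged 14.0 normalised counts in HF and 21.1 in LF. The deposited counts hold no gene under the symbol Gm49321.

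Epas1 encodes the HIF-2 alpha subunit, which is enriched in endothelium (chr17:86753700-86833410, + strand). It was by far the most abundant member, at 29417, 30907, 29541 and 31637 normalised counts in HF 1 to HF 4 and 24268, 27599, 28511 and 37234 in LF 1 to LF 4. The HF libraries all lay inside the LF range. The coefficient of variation was 3.55% among HF and 18.8% among LF libraries, and the difference in spread was not tested. The means were 30376 ± 1078 in HF and 29403 ± 5530.2 in LF (SD, n = 4 each), a fold of 1.05 with a 95% interval of 0.813 to 1.34 (limma adjusted p = 0.889). Its direction turned with the library choice: the fold was 0.932 (0.781 to 1.11) against LF 3 and LF 4 alone and 1.17 (1.01 to 1.36; limma adjusted p = 0.115) against LF 1 and LF 2 alone.

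Hif3a encodes a further alpha subunit whose splice forms can dampen the other ones (chr7:17031507-17062427, - strand). It was close to absent, with 5, 0, 0 and 3 reads in HF 1 to HF 4 and 1, 1, 1 and 0 reads in LF 1 to LF 4. In normalised counts these are 5.08, 0, 0 and 2.36 in HF, against 1.22, 0.924, 1.0 and 0 in LF. A count of 0 allows up to 3 reads, which is 2.67 normalised counts in HF 2, 2.91 in HF 3 and 3.39 in LF 4, for counting error only. No fold is given, since neither group stood clear of that limit in every library.

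The balance of both expressed alpha subunits was read within each library, where library scaling cancels. Epas1 over Hif1a was 23.1, 19.4, 23.2 and 19.8 in HF 1 to HF 4, against 24.6, 25.8, 21.2 and 24.0 in LF 1 to LF 4. The groups overlapped, and LF 3 was the only LF library under any HF value. With 1 added to each value, the log2 ratio averaged 4.41 ± 0.14 in HF and 4.57 ± 0.12 in LF (SD, n = 4 each). The difference was -0.16 (two-sided exact permutation test, p = 0.143, where 0.0286 is the smallest p that 4 against 4 libraries allow).

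Levels of different genes can be set side by side only per length, as normalised counts per kilobase of annotated exons. On this scale Epas1 stood at 5434 ± 193 in HF and 5259.9 ± 989 in LF (SD, n = 4 each), above P4ha1 in 8 of 8 libraries. P4ha1 (358 in HF, 302 in LF), Bnip3 (345 in HF, 290.0 in LF) and Ankrd37 (314 in HF, 277 in LF) followed, and their order changed between libraries: P4ha1 was above Bnip3 in 5 of 8 and Bnip3 above Ankrd37 in 5 of 8. Ankrd37 was above Hif1a (243 in HF, 210.0 in LF) in 8 of 8 libraries, and Hif1a was above Egln1 in 8 of 8. Egln1 (108 in HF, 129.6 in LF), Ndrg1 (157 in HF, 124 in LF) and Ddit4 (149.8 in HF, 115 in LF) had no fixed order, Egln1 being above Ndrg1 in 2 of 8 and Ndrg1 above Ddit4 in 4 of 8. Egln3 (2.01 in HF, 3.17 in LF) and Hif3a (0.277 in HF, 0.117 in LF) closed the order, Ddit4 being above Egln3 and Egln3 above Hif3a in 8 of 8.

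**Figure D2:**
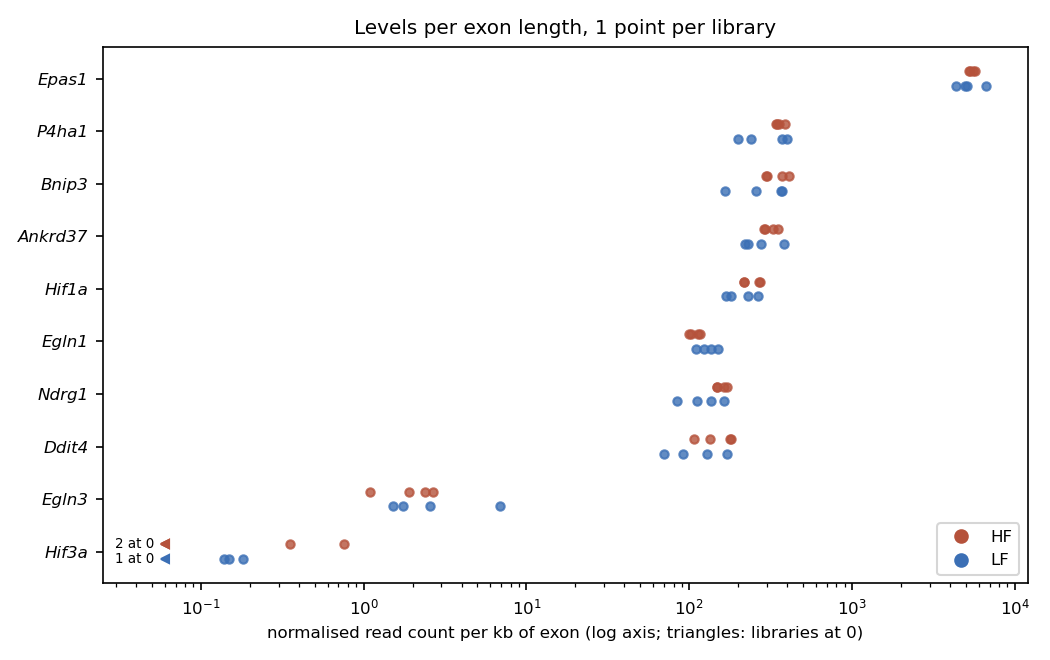
Normalised counts per kilobase of exon (log axis) for the 10 genes, with a point per library, HF above LF for each gene, and triangles at the left edge for libraries with 0 reads. Epas1, near 5434 in HF and 5259.9 in LF, lies far to the right of the rest, and Egln3 and Hif3a lie far to the left.

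Among the hydroxylases, Egln1 encodes the main oxygen sensor of most cells (chr8:124908587-124949324, - strand). It had 368, 405, 360.5 and 417 normalised counts in HF 1 to HF 4, against 538, 393, 492 and 439.9 in LF 1 to LF 4. The groups overlapped through LF 2, which lay under HF 2 and HF 4. It was the only one of the 8 tested members with a lower mean in HF, 388 ± 27.6 against 466 ± 62.7 in LF (SD, n = 4 each), a fold of 0.837 with a 95% interval of 0.681 to 1.03 (limma adjusted p = 0.512, with an unadjusted limma p of 0.0826). The fold hardly moved between the library choices, at 0.832 against LF 3 and LF 4 alone and 0.841 against LF 1 and LF 2 alone, and the sign was the same under all 20 alternatives run. Among these, other filters on low values and a block for replicate number leave a fold as it is, so they could not change the sign.

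Egln3 encodes a hydroxylase that hypoxia itself induces (chr12:54178981-54203860, - strand), and it was near the detection limit. It had 5.08, 7.11, 2.91 and 6.30 normalised counts in HF 1 to HF 4, against 18.3, 4.62, 4.01 and 6.79 in LF 1 to LF 4. The groups overlapped, and LF 1 was the one library above 10. The gene did not reach the 10 normalised counts in 4 libraries needed for a test. Within libraries, log2(Egln3 + 1) minus log2(Egln1 + 1) averaged -5.98 in HF and -5.84 in LF, a difference of -0.14 (two-sided exact permutation test, p = 0.800) that was 0.21 without LF 1. At such low counts the added 1 weighs: the difference was -0.16 with 0.5 added and -0.026 with 5 added.

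Of the 5 hypoxia-induced members, Bnip3, Ankrd37, P4ha1 and Ddit4 have a promoter window in the RefSeq table (GRCm38.p6), and these are shown because Bnip3, Ankrd37 and P4ha1 had their lowest values in the same libraries while Ddit4 did not. Each line gives, 5′ to 3′ on the gene's strand, the longest stretch of the 250 bases before the RefSeq start that lies outside annotated exons. Capitals mark ACGTG or GCGTG on either strand, the core letters of a hypoxia response element.
Bnip3: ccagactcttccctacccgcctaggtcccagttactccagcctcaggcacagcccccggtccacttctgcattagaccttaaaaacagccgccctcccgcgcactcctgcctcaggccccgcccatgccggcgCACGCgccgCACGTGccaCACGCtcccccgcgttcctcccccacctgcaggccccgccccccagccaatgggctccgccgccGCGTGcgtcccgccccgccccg
Ankrd37: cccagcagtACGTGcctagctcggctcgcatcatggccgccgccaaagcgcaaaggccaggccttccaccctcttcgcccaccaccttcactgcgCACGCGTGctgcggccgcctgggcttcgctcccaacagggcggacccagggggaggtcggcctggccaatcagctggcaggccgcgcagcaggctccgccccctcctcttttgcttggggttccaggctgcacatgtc
P4ha1: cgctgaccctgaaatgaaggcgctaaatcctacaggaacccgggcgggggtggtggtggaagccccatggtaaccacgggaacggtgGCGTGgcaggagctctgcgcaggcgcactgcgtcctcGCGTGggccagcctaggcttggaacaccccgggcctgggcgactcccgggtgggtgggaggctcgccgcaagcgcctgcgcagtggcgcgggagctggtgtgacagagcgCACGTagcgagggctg
Ddit4: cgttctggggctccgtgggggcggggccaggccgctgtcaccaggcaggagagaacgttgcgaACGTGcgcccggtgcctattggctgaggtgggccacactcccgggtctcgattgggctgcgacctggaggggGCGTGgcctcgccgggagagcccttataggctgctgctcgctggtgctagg

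The stretches lie at chr7:138909520-138909756 (- strand) for Bnip3, chr8:45999868-46000100 (- strand) for Ankrd37, chr10:59323046-59323295 (+ strand) for P4ha1 and chr10:59951835-59952020 (- strand) for Ddit4. In the full 250 bases there were 5 matches for Bnip3, 4 for Ankrd37, 3 for P4ha1 and 2 for Ddit4, counting each strand; the Bnip3 stretch holds the palindrome CACGTG, which counts once on each strand. All 8 members with a window held at least 1 match, 7 with ACGTG and 6 with GCGTG. Of all 32851 windows, 38.6% held either motif, and of the 14156 windows of genes tested here, 53.3%. The share was 70.3% (45 of 64) in windows of the other hypoxia-induced genes and 60.0% (9 of 15) in those of the other HIF machinery. The members' windows include those of Hif3a and Egln3, which were not tested. The members' windows were also richer in G and C, with a median of 68.6% against 59.2% in windows of genes tested. That median was 62.8% for the other hypoxia-induced genes and 66.8% for the other machinery. The letters describe the sequence only; no binding was measured.

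Bnip3 encodes a mitochondrial outer membrane protein that recruits the mitophagy machinery (chr7:138890836-138909519, - strand). It had 683, 842, 672 and 930.3 normalised counts in HF 1 to HF 4, against 373, 582, 832 and 840.2 in LF 1 to LF 4. LF 1 and LF 2 lay under every other library, while LF 3 and LF 4 lay inside the HF range. The means were 782 ± 126 in HF and 657 ± 224 in LF (SD, n = 4 each), a fold of 1.24 with a 95% interval of 0.873 to 1.76 (limma adjusted p = 0.632). Against LF 3 and LF 4 alone the fold was 0.926 (0.742 to 1.16), and against LF 1 and LF 2 alone it was 1.66 (1.25 to 2.21; limma adjusted p = 0.0224). The antisense gene Gm45507 overlaps exons of Bnip3, and the deposited counts hold no gene under that symbol.

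P4ha1 encodes the catalytic subunit of collagen prolyl 4-hydroxylase, needed for a stable collagen helix (chr10:59323296-59373304, + strand). It had 1411, 1418, 1602 and 1454 normalised counts in HF 1 to HF 4, against 822, 980.0, 1527 and 1648 in LF 1 to LF 4. As for Bnip3, LF 1 and LF 2 lay under all other libraries; here LF 4 was above them all. The means were 1472 ± 89.1 in HF and 1244 ± 404 in LF (SD, n = 4 each), a fold of 1.23 with a 95% interval of 0.914 to 1.66 (limma adjusted p = 0.590). It was 0.927 (0.791 to 1.08) against LF 3 and LF 4 alone and 1.64 (1.38 to 1.94; limma adjusted p = 0.00440) against LF 1 and LF 2 alone.

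Ndrg1 encodes a stress-induced cytoplasmic protein widely used as a hypoxia marker (chr15:66929318-66969640, - strand). It had 978, 970.5, 1081 and 1122 normalised counts in HF 1 to HF 4, against 554, 738, 896 and 1080.0 in LF 1 to LF 4. LF 4 was the one LF library above any HF library. The means were 1038 ± 75.5 in HF and 817 ± 224 in LF (SD, n = 4 each), a fold of 1.31 with a 95% interval of 0.997 to 1.71, with limma adjusted p = 0.455. Its unadjusted limma p of 0.0520 was the smallest among the members. It was higher in HF under all 20 alternatives run, yet its fold was 1.05 (0.876 to 1.26) against LF 3 and LF 4 alone and 1.62 (1.32 to 1.98; limma adjusted p = 0.00853) against LF 1 and LF 2 alone. The antisense genes Gm17035 and Gm2895 overlap its exons, and Gm2895 averaged 1.88 normalised counts in HF and 3.92 in LF. No gene under the symbol Gm17035 is among the deposited counts.

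Ankrd37 encodes a small ankyrin repeat protein known as a HIF target (chr8:45996902-46005707, - strand). It had 446, 538, 506 and 443 normalised counts in HF 1 to HF 4, against 340.4, 356, 584 and 426 in LF 1 to LF 4. All 4 HF libraries lay inside the LF range, with LF 1 and LF 2 lowest and LF 3 highest. The means were 483 ± 46.4 in HF and 427 ± 111 in LF (SD, n = 4 each), a fold of 1.16 with a 95% interval of 0.891 to 1.50 (limma adjusted p = 0.661). It was 0.965 (0.762 to 1.22) against LF 3 and LF 4 alone and 1.38 (1.13 to 1.70; limma adjusted p = 0.0348) against LF 1 and LF 2 alone. Exons of Lrp2bp and Ufsp2 on the opposite strand overlap Ankrd37; Ufsp2 averaged 776 normalised counts in HF and 741 in LF, and with the strand setting not given in the sources used here, reads of the pair may be shared.

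Ddit4, also called REDD1, encodes a brake on the mTOR kinase that both hypoxia and glucocorticoids induce (chr10:59949669-59951834, - strand). It ran the other way across the LF libraries, with 234, 314, 317 and 187 normalised counts in HF 1 to HF 4, against 298, 224, 123 and 161 in LF 1 to LF 4. The groups overlapped, and here LF 3 and LF 4 were the lowest of all 8 libraries. The means were 263 ± 63.3 in HF and 202 ± 76.5 in LF (SD, n = 4 each), a fold of 1.34 with a 95% interval of 0.901 to 2.01 (limma adjusted p = 0.569). Against LF 3 and LF 4 alone the fold was 1.82 (1.28 to 2.58; limma adjusted p = 0.0673), and against LF 1 and LF 2 alone it was 0.994 (0.704 to 1.40).

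**Figure D3:**
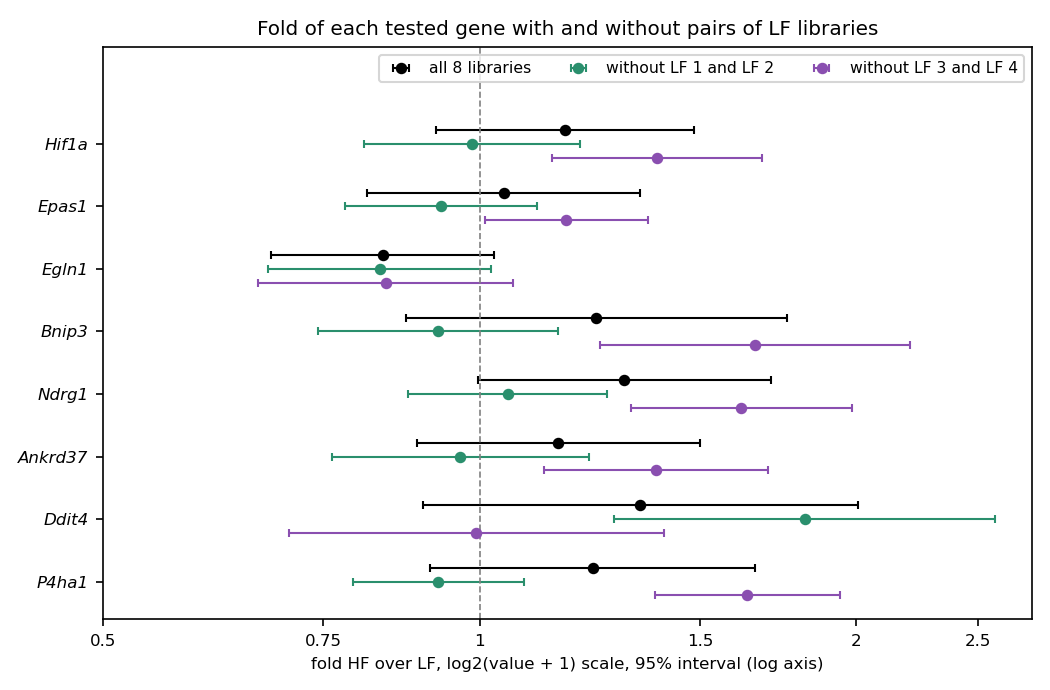
Fold of HF over LF with its 95% interval (log axis) for the 8 tested genes, from all 8 libraries (black), with LF 1 and LF 2 left out (green), and with LF 3 and LF 4 left out (purple). Hif1a, Bnip3, Ankrd37 and P4ha1 pass from just under 1 to between 1.38 and 1.66 with the choice of LF libraries, Ddit4 passes from 1.82 to 0.994, and Egln1 stays between 0.832 and 0.841.

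Against LF 1 and LF 2 alone, 5 of the 8 tested members were called higher in HF (Hif1a, Bnip3, Ndrg1, Ankrd37 and P4ha1), where 14.0% of all genes tested were called higher, 6.02% lower and 20.0% in either direction. Of the 10 endothelial markers, 8 were called higher against this pair and 1 lower. Against LF 3 and LF 4 alone, 0 of the 8 were called, where 3.09% of all genes were called higher, 0.662% lower and 3.76% in either direction. Both LF pairs were picked from these data, so calls against either pair do not support a difference between HF and LF. LF 1 was the lowest of all 8 libraries for 6 of the 8 tested members. This count and the deviations that follow have no all-gene values beside them here, so they are not read as particular to the members. The median of the members' log2 deviations from their own means was -0.41 in LF 1 and -0.28 in LF 2, against -0.01 to 0.18 in the HF libraries, 0.12 in LF 3 and 0.24 in LF 4. Egln1 was instead highest in LF 1 (538). Ddit4 had 298 and 224 in LF 1 and LF 2, above 123 and 161 in LF 3 and LF 4. The low levels of the other 6 went together with the low endothelial marker sum and the high share of unconfirmed transcript models in LF 1 and LF 2. The part of either in the result was not tested. In bulk RNA, fewer cells of a type and less RNA per cell cannot be told apart.

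**Figure D4:**
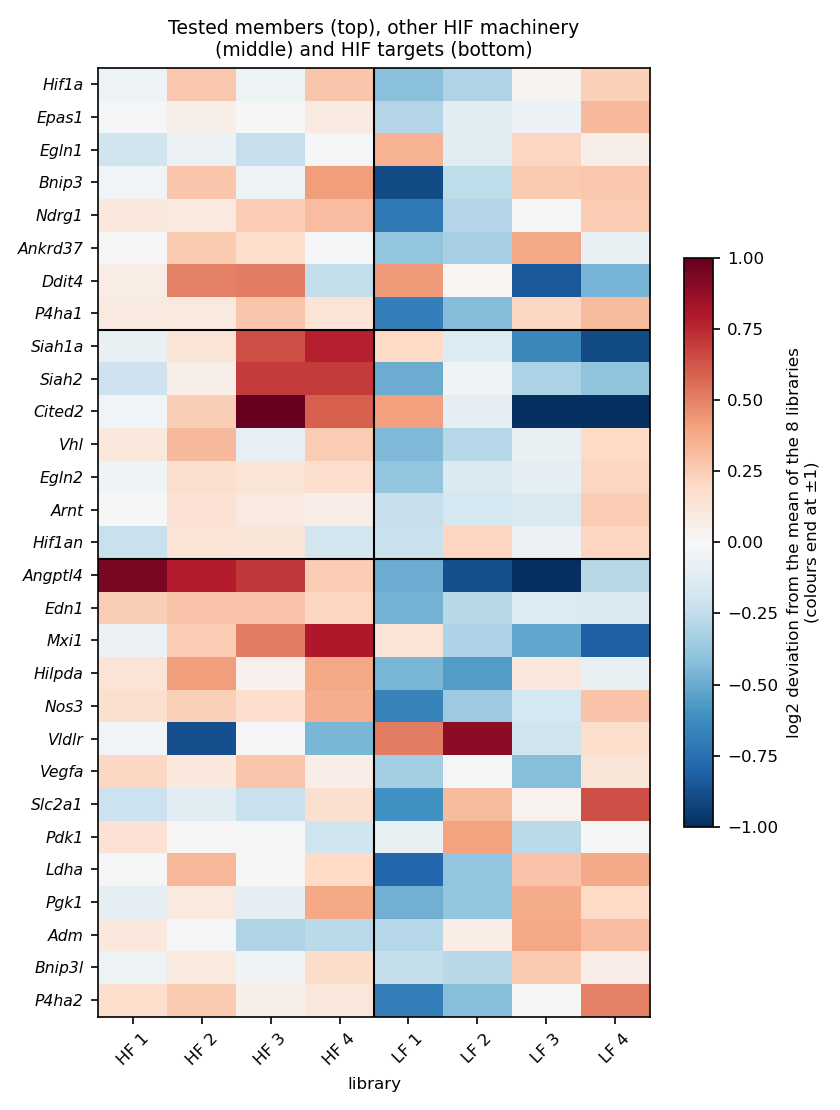
Colour map of the log2 deviation of each gene from its own mean over the 8 libraries (red above it, blue below, colours end at 1 either way), with HF libraries left and LF libraries right. The tested members are on top, the named genes of the HIF machinery in the middle and the named hypoxia-induced genes at the bottom; 6 of the 8 tested members have their lowest value in LF 1, and Ddit4, Siah1a, Cited2 and Mxi1 are lowest in LF 3 or LF 4.

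No marker of another cell type was at 0 in all 8 libraries, and the sums of each list reached lower in HF. The 12 leukocyte markers summed to 3573 to 6314 normalised counts in HF and 6208 to 7550.4 in LF, and the 12 epithelial markers to 16598 to 25527 in HF and 21312 to 35563 in LF. The 10 fibroblast markers summed to 1759.6 to 3789 in HF and 2813 to 5235 in LF, the 10 mural markers to 2613 to 3069 in HF and 3052 to 4858 in LF, and the 10 red cell and platelet markers to 23137 to 26086 in HF and 25146 to 44584 in LF. The 6 mesothelial markers summed to 199 to 318 in HF and 337 to 644 in LF. Group means were lower in HF for 12 of 12 leukocyte, 12 of 12 epithelial and 8 of 10 fibroblast markers. They were also lower for 9 of 10 mural, 6 of 10 red cell and platelet and 5 of 6 mesothelial markers. The mean of Egln1 was lower as well. Of the 17067 genes tested, 7980 had a lower mean log2 value in HF. Among the markers, 2 leukocyte, 1 red cell and platelet and 3 mesothelial ones stayed under 10 in every library. Against LF 3 and LF 4 alone, 1 of 9 tested leukocyte, 4 of 11 epithelial and 0 of 10 fibroblast markers were higher in HF. So were 2 of 10 mural, 1 of 9 red cell and platelet and 1 of 2 mesothelial markers. The part of such RNA in the members' values was not tested.

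Of the 20 other genes of the HIF machinery (partners, cofactors, hydroxylases and ubiquitin ligase subunits), 19 were tested. Of these, 15 had a higher mean in HF (53.2% of all genes tested did) and 0 passed the adjusted threshold. The median log2 fold change was 0.09, against 0.02 over all genes tested and 0.075 over those with a mean of at least 50. Against LF 3 and LF 4 alone, 10 of the 19 were higher with a median of 0.01, where 7756 of the 17067 genes tested were higher. Against LF 1 and LF 2 alone, 14 were higher with a median of 0.32, where 8964 genes were. With all 8 libraries, 3 had an unadjusted limma p under 0.05 and a higher mean (background 6.36%), and 0 had one and a lower mean (background 4.67%). The 3 were Siah1a and Siah2, ubiquitin ligases that act on prolyl hydroxylases, and Cited2, a competitor of HIF for the coactivator p300.

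Cited2 had 323, 393, 829.7 and 501 normalised counts in HF 1 to HF 4, against 438, 309, 149 and 132 in LF 1 to LF 4. Its fold was 2.10 with a 95% interval of 1.20 to 3.69 (limma adjusted p = 0.318), and it was 3.40 against LF 3 and LF 4 alone (limma adjusted p = 0.00762) and 1.30 against LF 1 and LF 2 alone. Siah1a showed the same order, with 656 to 1185 in HF, 795 and 629 in LF 1 and LF 2, and 443 and 372 in LF 3 and LF 4. Its fold was 1.66 (1.15 to 2.41; limma adjusted p = 0.300), and it was 2.20 against LF 3 and LF 4 alone (limma adjusted p = 0.0126) and 1.26 against LF 1 and LF 2 alone. For both genes, as for Ddit4, LF 3 and LF 4 were the lowest of the 8 libraries. Siah2 lay between 242 and 455 in HF and between 198 and 272 in LF, a fold of 1.54 (1.12 to 2.13; limma adjusted p = 0.309) that was 1.59 against LF 3 and LF 4 alone and 1.49 against LF 1 and LF 2 alone.

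The other named genes of the oxygen-sensing chain did not pass the test with all 8 libraries. Arnt, the constant partner, averaged 1715 ± 70.6 in HF and 1557 ± 258 in LF (fold 1.11, limma adjusted p = 0.662). Vhl, the ligase's recognition subunit, averaged 678 ± 83.1 in HF and 556 ± 109 in LF (fold 1.23, limma adjusted p = 0.506), and Egln2, another prolyl hydroxylase, 1435 ± 93.3 in HF and 1255 ± 219 in LF (fold 1.15, limma adjusted p = 0.585). Hif1an, the asparagine hydroxylase that blocks coactivator binding, averaged 597 ± 79.2 in HF and 629 ± 92.4 in LF (SD, n = 4 each; fold 0.951, limma adjusted p = 0.854). Set against LF 3 and LF 4 alone, the folds were 1.02 for Arnt, 1.06 for Vhl, 1.03 for Egln2 and 0.924 for Hif1an. Against LF 1 and LF 2 alone they were 1.21 for Arnt (limma adjusted p = 0.0613), 1.43 for Vhl (limma adjusted p = 0.0281), 1.29 for Egln2 (limma adjusted p = 0.0411) and 0.979 for Hif1an. Of the 19 machinery genes, 7 were called higher in HF against LF 1 and LF 2 alone, where 14.0% of all genes were, and 2, Siah1a and Cited2, against the other pair, where 3.09% of all genes were.

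Of the 56 further hypoxia-induced genes, 55 were tested; 4 of the 56 also serve as markers or members of another list. A higher mean in HF was seen for 37 of the 55 (67.3%, against 53.2% of all genes), 0 passed the adjusted threshold, and the median log2 fold change was 0.09. Against LF 3 and LF 4 alone, 23 of the 55 were higher with a median of -0.07, where 7756 of the 17067 genes tested were higher. Against LF 1 and LF 2 alone, 38 were higher with a median of 0.24, where 8964 genes were. The counts that follow are from all 8 libraries. An unadjusted p under 0.05 was found for 8 with a higher mean (background 6.36%) and for 4 with a lower mean (background 4.67%). Angptl4 and Edn1 alone had all HF libraries above all LF libraries, where 3.47% of all genes tested did.

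**Figure D5:**
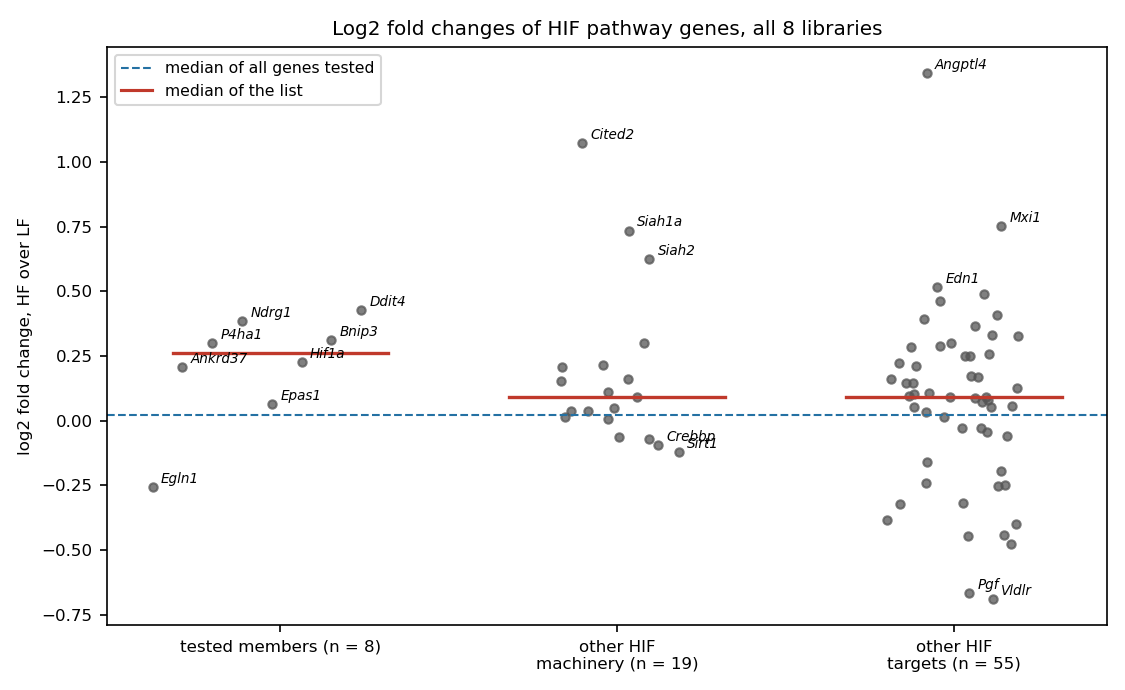
Log2 fold change of HF over LF for the 8 tested members, 19 other genes of the HIF machinery and 55 other hypoxia-induced genes, with a solid line at each list's median and a dashed line at the median of all genes tested. The list medians are 0.26, 0.09 and 0.09, against 0.02 for all genes, and horizontal position within a list has no meaning. Among genes with a mean of at least 50 normalised counts, the median is 0.075 for all genes, 0.092 for the machinery and 0.10 for the targets.

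Angptl4, a secreted inhibitor of lipoprotein lipase that fatty acids as well as hypoxia induce, had 361, 324, 308 and 224 normalised counts in HF 1 to HF 4, against 133, 102, 91.3 and 155 in LF 1 to LF 4. Its fold was 2.53 with a 95% interval of 1.85 to 3.48 (limma adjusted p = 0.124, with an unadjusted limma p of 3.16e-05), and it was 2.51 against LF 3 and LF 4 alone and 2.56 against LF 1 and LF 2 alone. Edn1, the precursor of the vasoconstrictor endothelin, averaged 3593 ± 86.9 in HF and 2521 ± 269 in LF (SD, n = 4 each), a fold of 1.43 (1.21 to 1.70; limma adjusted p = 0.163) that was 1.32 against LF 3 and LF 4 alone and 1.55 against LF 1 and LF 2 alone. Both passed the adjusted limma threshold under either choice of LF libraries, though not with all 8 libraries. These fits share the HF libraries, and the LF pairs were picked from these data, so the passes are not independent support. In either direction, 3.76% of all genes were called against LF 3 and LF 4 alone and 20.0% against the other pair. Against LF 3 and LF 4 alone the limma adjusted p was 0.0109 for Angptl4 and 0.0294 for Edn1, and against the other pair it was 0.00414 for Angptl4 and 0.00384 for Edn1. Mxi1, a MYC antagonist, followed Cited2 rather than Bnip3, with a fold of 1.68 (limma adjusted p = 0.223) that was 2.06 against LF 3 and LF 4 alone and 1.38 against LF 1 and LF 2 alone.

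Hilpda, a lipid droplet protein, averaged 12531 ± 1595 in HF and 9028 ± 1974 in LF (fold 1.40, limma adjusted p = 0.320), and Nos3, the endothelial nitric oxide synthase, 1259 ± 83.9 in HF and 938 ± 268 in LF (fold 1.38, limma adjusted p = 0.352). Vegfa, the endothelial growth factor, averaged 12383 ± 825 in HF and 9958 ± 1789 in LF (fold 1.26 with a 95% interval of 1.002 to 1.58, limma adjusted p = 0.447). Hilpda and Nos3 depended on the LF libraries: Hilpda had a fold of 1.17 against LF 3 and LF 4 alone and 1.69 against LF 1 and LF 2 alone (limma adjusted p = 0.00456), and Nos3 had 1.13 against LF 3 and LF 4 alone and 1.68 against LF 1 and LF 2 alone (limma adjusted p = 0.00464). Vegfa was at 1.24 against LF 3 and LF 4 alone and 1.27 against LF 1 and LF 2 alone (limma adjusted p = 0.0493). Among the 4 genes with an unadjusted p under 0.05 and a lower mean were Vldlr, Pgf and Tfrc; Pgf and Tfrc are named after their values were seen. Vldlr, a lipoprotein receptor, averaged 104 ± 28.0 in HF and 169.6 ± 54.9 in LF (fold 0.621, limma adjusted p = 0.374). Pgf, a placental relative of Vegfa, had a fold of 0.630, and Tfrc, the transferrin receptor, 0.734. The folds against LF 3 and LF 4 alone were 0.796 for Vldlr, 0.791 for Pgf and 0.664 for Tfrc, and against LF 1 and LF 2 alone they were 0.484 for Vldlr (limma adjusted p = 0.0226), 0.502 for Pgf (limma adjusted p = 0.0443) and 0.811 for Tfrc.

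Of the named targets in glucose use, Ldha, which makes lactate, averaged 6704 ± 789 in HF and 5878 ± 2119.6 in LF (fold 1.20, limma adjusted p = 0.677), and Pgk1, phosphoglycerate kinase, 935 ± 155 in HF and 865 ± 251 in LF (fold 1.11, limma adjusted p = 0.779). Slc2a1, the glucose transporter, averaged 263 ± 33.8 in HF and 314 ± 107 in LF (fold 0.875, limma adjusted p = 0.759). Pdk1, which holds pyruvate back from mitochondria, had a fold of 0.981 (0.781 to 1.23). All 4 turned direction with the library choice. Ldha had a fold of 0.871 against LF 3 and LF 4 alone and 1.64 against LF 1 and LF 2 alone (limma adjusted p = 0.00763), and Pgk1 had 0.862 against LF 3 and LF 4 alone and 1.42 against LF 1 and LF 2 alone (limma adjusted p = 0.0329). Slc2a1 was at 0.740 against LF 3 and LF 4 alone and 1.03 against LF 1 and LF 2 alone, and Pdk1 at 1.09 against LF 3 and LF 4 alone and 0.884 against LF 1 and LF 2 alone.

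Adm, the vasodilator adrenomedullin, had a fold of 0.846 (0.648 to 1.10), which was 0.723 against LF 3 and LF 4 alone and 0.990 against LF 1 and LF 2 alone. Bnip3l, the mitophagy relative of Bnip3, had a fold of 1.07 (0.863 to 1.32), and P4ha2, the relative of P4ha1, 1.23 (0.898 to 1.69). Both turned direction like Bnip3 and P4ha1: Bnip3l was at 0.922 against LF 3 and LF 4 alone and 1.23 against LF 1 and LF 2 alone, and P4ha2 at 0.930 against LF 3 and LF 4 alone and 1.63 against LF 1 and LF 2 alone (limma adjusted p = 0.00529). Car9, a carbonic anhydrase that is nearly silent without hypoxia in many tissues, averaged 2.78 ± 1.21 in HF and 1.62 ± 1.31 in LF (SD, n = 4 each) and was too low to test. Against LF 1 and LF 2 alone, 20 of the 55 genes were called higher in HF and 4 lower, where 14.0% of all genes were called higher and 6.02% lower. The count was 3 higher against LF 3 and LF 4 alone (Angptl4, Edn1 and Mxi1) and 0 lower, where 3.09% of all genes were called higher and 0.662% lower.

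For 4 members the genes with the most similar profile over the 8 libraries were found, by the root mean square difference of mean-centred log2 values. For Epas1 they were Rnf44, Tmem106b and Rnh1, at 0.043, 0.045 and 0.046, among 9797 candidates. For Hif1a they were Rab10, Add3 and Pea15a, at 0.027, 0.031 and 0.032, among 7345. For Ndrg1 they were Pfkl, a liver-type phosphofructokinase, Lmf1 and Tmem246, at 0.070, 0.071 and 0.077, among 4790, with P4ha1 at rank 69. For Ddit4 the closest, Nfil3, Guf1 and Zc3hav1l, were at 0.21, 0.22 and 0.23, farther off than for the other 3, and Bnip3 ranked 1586 of 2081. All profiles share the same 8 libraries.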

How the data were processed

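Sorted lung endothelial cells were sequenced after SMART-Seq library preparation, per the labels' protocols. STAR 2.6.1b, featureCounts 2.0.0 and DESeq2 1.24.0 are named in the submitters' processing notes; genome build and strand setting were not given in the sources used here. Per the file headers, the authors' file lists normalised counts per gene and library (a signal unit), together with the authors' log2 fold change, test score, p-value and adjusted p-value. The 8 members given an adjusted p in the authors' deposited table lay between 0.461 and 0.919. Gene positions and exon lengths came from GENCODE M21, which held all 34899 identifiers.

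All values here start from the deposited normalised counts. Genes with at least 10 in at least 4 libraries (17067) were tested on log2(normalised count + 1) with limma 3.58.1 (moderated test with mean-variance trend, 2-sided), HF against LF, no covariate; folds are on that scale and understate changes of low genes. Dividing by the value of 1 read gave whole reads (within 0.01) for 100.0% of values in every library; edgeR 4.0.16 and DESeq2 1.42.0 were run on these reads as alternatives, all in R 4.3.3. The fits were tested on simulated data. Depth was 10631506 to 20781564 reads per library. All 10 members are named, and of each other HIF list the 6 genes with the smallest p plus 13 chosen by symbol. The members, lists and library splits were chosen with earlier results of these data known. The values of 1 gene of the hypoxia-induced list are not reported here.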

Additional observations from a re-analysis of the deposited data

How the results depend on the processing

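The sign of the log2 fold change was the same under all 20 alternatives for Egln1 and Ndrg1, though the filters and the replicate block could not change it. Without LF 1 and LF 2 it reversed for Hif1a (-0.020), Epas1 (-0.10), Bnip3 (-0.11), Ankrd37 (-0.051) and P4ha1 (-0.11), and without LF 3 and LF 4 for Ddit4 (-0.0090). Without LF 3 and LF 4 the limma call was gained by 5 members, at 0.47 for Hif1a, 0.73 for Bnip3, 0.70 for Ndrg1, 0.47 for Ankrd37 and 0.71 for P4ha1; the cause was not tested. Epas1 also reversed under quantile normalisation (-0.064) and, with single libraries left out, ranged from -0.022 (without LF 1) to 0.18. The count of all genes called was 1 with no filter, 0 to 1 with single libraries left out (1 without LF 2, 1 without LF 4), 641 without LF 1 and LF 2, 3421 without LF 3 and LF 4, and 313 with DESeq2. The log2 difference of Egln3 minus Egln1 ranged from -0.40 to 0.21 with single libraries left out, being 0.04 without HF 3 and 0.21 without LF 1, and was 0.24 without LF 1 and LF 2. The median of the other machinery genes was -0.018 under quantile normalisation and 0.32 without LF 3 and LF 4, and that of the other targets -0.070 without LF 1 and LF 2.

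Scaling each library to its 10 endothelial markers was added after seeing the data. It moved the median log2 fold change of all genes tested to -0.16 and called 0 genes (limma). The medians were -0.095 for the other machinery genes and -0.094 for the other targets. Of the tested members, Epas1 was at -0.12 and Egln1 at -0.44. Hif1a was at 0.040, Ankrd37 at 0.023, P4ha1 at 0.11, Bnip3 at 0.12, Ndrg1 at 0.20 and Ddit4 at 0.24. Each of these members was lower than without this scaling, as was the median of all genes.

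The replicate numbers were not treated as pairs. Same-numbered libraries correlated at 0.11, -0.22, -0.14 and 0.18 in their deviations from the group means, and different-numbered ones at -0.22 to 0.31. Such values cannot exclude a pairing. With a replicate block, limma called 0 genes and 0 members, and the exact p was 0.375 for Epas1 minus Hif1a and 0.875 for Egln3 minus Egln1. Hif3a, Egln3 and Car9 did not reach the filter on low values; with no filter, Hif3a had an unadjusted limma p of 0.602 and Egln3 of 0.509, and counts this low limit what either shows.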

Other observations

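Ddit4 is also a glucocorticoid-induced gene, and 14 such genes were read beside it. Of 13 tested, 12 had a higher mean in HF (53.2% of all genes did), with 0 past the adjusted limma threshold, an unadjusted p under 0.05 for 4 with a higher mean (Cebpd, Dusp1, Per1 and Tsc22d3) and 1 with a lower mean (Mt1; Cebpd, Dusp1 and Mt1 are named after their values were seen); the shares of all genes were 6.36% and 4.67%. Of the 13, 10 were higher in HF against LF 3 and LF 4 alone and 2 were called higher, and against LF 1 and LF 2 alone 10 were higher and 5 were called higher, where 3.09% and 14.0% of all genes were called higher. Among all 17067 genes tested, 7756 and 8964 were higher in these splits. Tsc22d3, a glucocorticoid-induced leucine zipper gene, had a fold of 1.10 against LF 3 and LF 4 alone and 1.98 against LF 1 and LF 2 alone (limma adjusted p = 0.00778). Per1, a clock gene, had 409.5, 390.1, 642 and 491 normalised counts in HF 1 to HF 4, against 312, 370.4, 284 and 369.8 in LF 1 to LF 4, with no overlap between the groups (fold 1.43, limma adjusted p = 0.308; 1.46 against LF 3 and LF 4 alone and 1.39 against LF 1 and LF 2 alone). Fkbp5, a glucocorticoid receptor cochaperone, averaged 65.6 ± 30.9 in HF and 53.2 ± 26.3 in LF (SD, n = 4 each), and Sgk1, a kinase of the same response, 12786 ± 1582 in HF and 11139 ± 2746 in LF. Fkbp5 had a fold of 1.96 against LF 3 and LF 4 alone and 0.818 against LF 1 and LF 2 alone, and Sgk1 0.963 against LF 3 and LF 4 alone and 1.41 against LF 1 and LF 2 alone (limma adjusted p = 0.0149). Like Ddit4, Fkbp5 had its lowest values in LF 3 (30.1) and LF 4 (31.7).

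Of 24 immediate early genes, which cell handling can induce, 21 had a higher mean in HF (53.2% of all genes did), with 0 past the adjusted limma threshold and 3 at an unadjusted p under 0.05 (Rhob, Ier5 and Jund, named after their values were seen; 6.36% of all genes were higher at that p). Of the 24, 14 were higher in HF against LF 3 and LF 4 alone, with a median log2 fold change of 0.04 and 2 called higher, and against LF 1 and LF 2 alone 21 were higher and 8 were called higher, where 3.09% and 14.0% of all genes were called higher. Among all 17067 genes tested, 7756 and 8964 were higher in these splits. Fos had a fold of 1.14, Jun 1.07 and Egr1 1.17, each above 1 under both choices of LF libraries. Atf3 had a fold of 1.13, which was 0.811 against LF 3 and LF 4 alone and 1.58 against LF 1 and LF 2 alone (limma adjusted p = 0.0101). Atf3 followed the order seen for Bnip3 and P4ha1, with 7973 and 10744 normalised counts in LF 1 and LF 2 and 15420.0 and 21075 in LF 3 and LF 4.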
